A study of Mus musculus with 12 samples.

Results

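The effect of Semaphorin 3E (Sema3E) on granulosa cells (GCs) was examined by comparing 3 GC libraries from ovaries injected with Sema3E with 3 GC libraries from ovaries injected with IgG. The genes followed were those of the protein-coding biotype whose level was over 1 TPM (a gene's length-corrected share of all transcripts in a library) in at least 1 of these 6 libraries. There were 12183 such genes among 17174 protein-coding genes and 23150 genes in the whole table. They were chosen by expression in either treatment. A gene low in 1 treatment could thus enter through the other alone.

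Mice were wild type, female and immature, and were superovulated with PMSG followed by hCG. In the Sema3E group, 1 ovary was injected with 2 µg of recombinant mouse Sema3E, in a volume of 10 µL that held 0.1% BSA in PBS. In the IgG group, the opposite ovary received 2 µg of mouse IgG in the same volume and vehicle. Injections were made before hCG, and GCs were isolated at 8 h post-hCG by puncturing follicles with a needle. The GCs of 1 ovary were 1 replicate, and the sources used here do not say which libraries came from the same mouse. The other 6 of the 12 libraries held the remaining ovarian stromal tissue from the same kind of ovaries.

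GCs line the follicle and nourish the oocyte. The luteinizing hormone (LH) surge, which hCG stands in for, makes them produce progesterone, release EGF-like ligands that expand the cumulus around the oocyte, and begin to become luteal cells. Sema3E is a secreted guidance protein that binds the receptor Plexin-D1, best known for repelling growing axons and blood vessels. A preparation of punctured follicles can also hold cumulus cells, oocytes, blood and fragments of the follicle wall, and in bulk RNA a smaller number of cells of a type and less RNA per cell cannot be told apart.

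The libraries differed in blood and leukocyte RNA. Between 11377 and 11600 protein-coding genes exceeded a TPM of 1 in a Sema3E library and between 11228 and 11508 in an IgG library. Globin genes made up 6.64% to 15.8% of the TPM in Sema3E libraries and 4.54% to 19.6% in IgG libraries, and mitochondrial genes made up 21.0% to 24.1% in Sema3E libraries and 20.1% to 22.2% in IgG libraries. IgG replicate 1 (IgG 1) stood apart, with the lowest value of the 6 libraries for 7876 of the 12183 genes and the highest for 1500. The median SD between replicates on the log2(TPM + 1) scale was 0.10 among the Sema3E libraries and 0.23 among the IgG libraries, and 0.10 between IgG 2 and IgG 3 alone. Results were therefore also checked against IgG 2 and 3 only, and the p without IgG 1 is given where a gene named below lost an unadjusted p under 0.05. The number of reads behind each library is not known from TPM.

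Few genes stood out from the spread between replicates. Of 15128 genes of every biotype tested with limma, 10 passed a Benjamini-Hochberg adjusted p of 0.05, which is 0.0661%, and 1 of these was a protein-coding gene, Tac1. At an unadjusted p of 0.05, 390 protein-coding genes (3.2%) were higher and 98 (0.804%) were lower in Sema3E libraries, so that 79.9% of these 488 genes were higher. The share of higher genes was 42.0% when libraries were scaled by median ratios, with 376 higher and 520 lower, and 48.3% without IgG 1, with 602 higher (5.03%) and 645 lower (5.39%). Without IgG 1, 371 of the 488 genes were again at an unadjusted p under 0.05 in the same direction, of which 295 were higher and 76 were lower. The median log2 fold change of the 12183 genes was 0.05, and it was −0.03 after median ratio scaling and −0.03 without IgG 1.

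The 3 Sema3E values lay above all 3 IgG values for 1059 genes (8.69%) and below them for 217 genes (1.78%). Against IgG 2 and 3 only, the Sema3E values lay above for 1650 genes (13.5%) and below for 2345 genes (19.2%). With a more than 2-fold difference on log2(TPM + 1) as a second condition beside the unadjusted p, 24 genes (0.197%) remained, 18 of them higher and 6 lower in Sema3E libraries.

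The GC label held in all 6 libraries. All 18 GC markers were detected, among them the inhibin subunit gene Inha at 7646, 8142 and 8048 TPM in Sema3E libraries and 5027, 7066 and 11240 TPM in IgG libraries. Foxl2, a transcription factor that maintains GC identity, was at 514, 558 and 480 TPM in Sema3E libraries and 287, 433 and 586 TPM in IgG libraries. For both genes the groups overlapped, with IgG 1 lowest and IgG 3 highest. The mRNA of endogenous Sema3e was at 1.17, 0.86 and 0.77 TPM in Sema3E libraries and 0.95, 0.87 and 0.46 TPM in IgG libraries, a difference smaller than the spread between replicates. Plxnd1, the gene of its receptor, was at 9.74, 10.8 and 8.13 TPM in Sema3E libraries and 9.39, 12.5 and 9.59 TPM in IgG libraries, and again the groups overlapped.

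Several genes of neuropeptides were higher in Sema3E libraries. The list of neuropeptide and synaptic genes held 25 tested members, of which 7 had an unadjusted p under 0.05 in limma, each of them higher (3.2% of all protein-coding genes), and 6 had groups that did not overlap (8.69%). Without IgG 1, 4 were higher (5.03% of all genes) and 1 was lower (5.39%). The median log2 fold change of the list was 0.20 with all libraries and 0.15 without IgG 1. The list was drawn up with the results of these samples known and is not independent evidence of a direction.

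Tac1 (chr6:7554879-7565834 in GRCm38), the gene of the substance P precursor, was at 6.06, 7.15 and 9.20 TPM in Sema3E libraries and 2.25, 1.62 and 1.74 TPM in IgG libraries. Every Sema3E library lay above every IgG library, and Tac1 rose by 1.55 on the log2 scale with a standard error of 0.17 (limma, adjusted p = 0.0346). Without IgG 1 the log2 fold change was 1.64 and the adjusted p was 0.126, and over the other alternatives without a replicate block it was 0.0333 to 0.826. Npy (chr6:49822710-49829507), the gene of neuropeptide Y, was at 7.30, 3.23 and 7.21 TPM in Sema3E libraries and 1.76, 1.31 and 1.20 TPM in IgG libraries (log2 fold change 1.45, standard error 0.27). Sema3E replicate 2 was the lowest of its group and still above all IgG libraries. Gal (chr19:3409915-3414544), which encodes galanin, was at 3.73, 4.78 and 6.34 TPM in Sema3E libraries and 1.59, 1.62 and 2.57 TPM in IgG libraries (log2 fold change 1.02, standard error 0.21).

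The other members at this threshold differed less. Ache, which encodes acetylcholinesterase, was at 2.45, 2.10 and 3.68 TPM in Sema3E libraries and 0.73, 1.47 and 0.57 TPM in IgG libraries. Pcsk1n, the gene of the proSAAS precursor that inhibits a prohormone convertase, had a log2 fold change of 0.62, and Adcyap1 and Scg2, the genes of PACAP and secretogranin II, had 0.52 and 0.51. Adcyap1 and Scg2 overlapped between groups, with IgG 2 within the Sema3E range. Without IgG 1, the unadjusted p in limma stayed under 0.05 for Tac1, Npy, Gal and Ache and was 0.0662 for Pcsk1n, 0.0954 for Adcyap1 and 0.149 for Scg2. The 2 most abundant neuropeptide genes behaved otherwise. Nts, the gene of neurotensin, was at 304, 249 and 348 TPM in Sema3E libraries and 228, 320 and 368 TPM in IgG libraries, and Penk, of proenkephalin, was at 77.9, 81.6 and 94.5 TPM in Sema3E libraries and 67.6, 91.6 and 101 TPM in IgG libraries. Neither differed beyond the replicate spread.

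Promoters of Tac1, Gal and Scg2 are shown as examples of windows that hold letters of cyclic AMP response, a pathway through which the LH receptor is known to signal. They were picked after the values were seen, and they do not represent the list. Of the 25 genes, 17 had a promoter in the RefSeq table (GRCm38.p6), from 250 bases before to 50 bases after the start. The letters searched were TGACGTCA, the full cyclic AMP response element, and its shorter form TGACG, which the full element contains, on both strands. TGACGTCA was in 2 of the 17 genes' promoters and TGACG in 10, against 1.79% and 20.8% of all 32851 promoters of this length. A gene was counted when any of its windows held the letters, while the percentages are of single windows, so these shares are not strictly alike. Capitals mark these letters or their reverse complement, in the Tac1 promoter (chr6:7554811-7555110, plus strand), the Gal promoter (chr19:3414495-3414794, minus strand) and the Scg2 promoter (chr1:79439977-79440276, minus strand), each read in the direction of transcription. The windows of Npy, Ache and Pcsk1n held neither form, while that of Nts, whose groups overlapped, held the shorter one.
Tac1 promoter: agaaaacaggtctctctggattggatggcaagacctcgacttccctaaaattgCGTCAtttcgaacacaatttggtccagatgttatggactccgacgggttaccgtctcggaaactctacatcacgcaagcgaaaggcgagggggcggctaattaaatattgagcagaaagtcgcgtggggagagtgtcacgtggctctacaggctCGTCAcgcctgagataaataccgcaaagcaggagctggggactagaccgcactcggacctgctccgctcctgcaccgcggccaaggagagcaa
Gal promoter: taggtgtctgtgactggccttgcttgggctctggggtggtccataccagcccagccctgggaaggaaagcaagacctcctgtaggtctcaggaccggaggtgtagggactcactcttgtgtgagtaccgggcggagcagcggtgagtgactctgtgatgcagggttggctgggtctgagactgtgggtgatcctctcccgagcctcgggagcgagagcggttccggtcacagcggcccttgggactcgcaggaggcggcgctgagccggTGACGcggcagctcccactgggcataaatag
Scg2 promoter: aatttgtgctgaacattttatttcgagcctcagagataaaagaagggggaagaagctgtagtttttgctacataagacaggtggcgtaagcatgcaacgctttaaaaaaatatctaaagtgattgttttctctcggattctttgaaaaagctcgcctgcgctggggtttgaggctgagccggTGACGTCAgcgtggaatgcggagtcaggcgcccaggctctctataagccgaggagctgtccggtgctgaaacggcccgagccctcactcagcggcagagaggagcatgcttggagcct

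**Figure D1:**
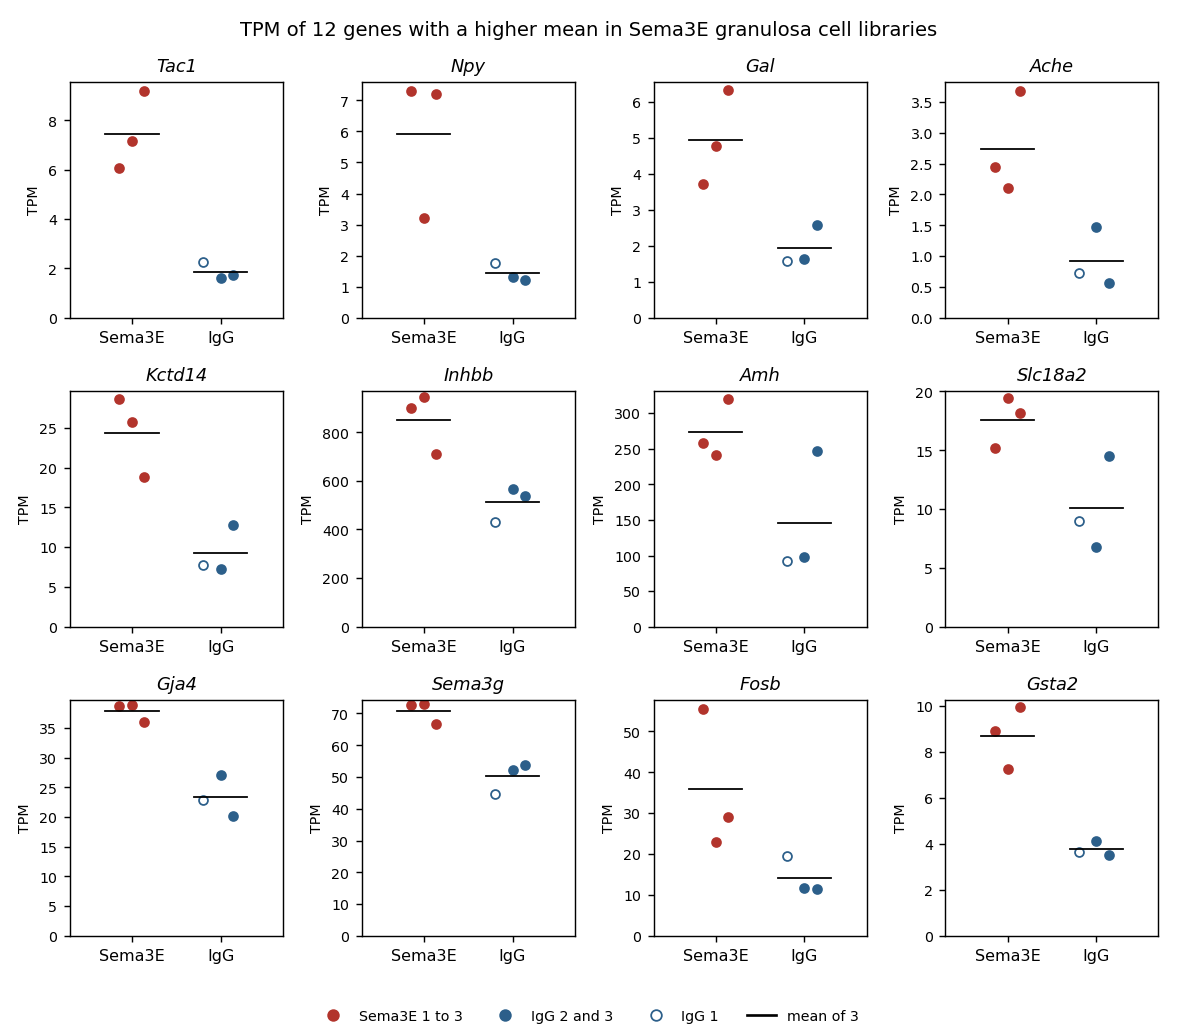
TPM of 12 genes in each GC library (linear axes from 0), with Sema3E libraries on the left and IgG libraries on the right of each panel, IgG 1 as an open circle and the mean of 3 libraries as a bar. Tac1 lies at 6.06 to 9.20 TPM in Sema3E libraries and at 1.62 to 2.25 TPM in IgG libraries, and Amh overlaps with IgG 3 at 248 TPM.

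Some genes of the hormones that GCs of growing follicles make were higher in Sema3E libraries, of which none passed an adjusted p of 0.05. Of 19 genes of inhibins, activins, follistatin, AMH and their receptors and SMADs, 4 had an unadjusted p under 0.05, each of them higher (3.2% of all genes), and the median log2 fold change was 0.18. Without IgG 1 the median was 0.10, and 13 of the 19 had a positive log2 fold change. Inhbb (chr1:119415465-119422248), the gene of the inhibin βB subunit, was at 898, 945 and 709 TPM in Sema3E libraries and 432, 568 and 540 TPM in IgG libraries (log2 fold change 0.73, standard error 0.17). All Sema3E libraries were above all IgG libraries, also without IgG 1. Amh, the gene of anti-Müllerian hormone, which GCs of smaller growing follicles and cumulus cells make, was at 259, 242 and 320 TPM in Sema3E libraries and 92.6, 98.0 and 248 TPM in IgG libraries. IgG 3 reached the level of the Sema3E libraries, and the log2 fold change was 1.05 (standard error 0.39). In limma its unadjusted p was 0.0336, and 0.0952 without IgG 1.

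Bmpr2, of a type II receptor for BMPs, and Fstl3, an activin-binding protein gene, had log2 fold changes of 0.41 and 0.42 with groups that did not overlap. Inha, Fst and Acvr1b, which share the pathway, had log2 fold changes of 0.11, 0.12 and −0.01. Kctd14 (chr7:97451323-97459557), a marker of GCs, was at 28.6, 25.7 and 18.8 TPM in Sema3E libraries and 7.77, 7.30 and 12.8 TPM in IgG libraries (log2 fold change 1.32, standard error 0.24). Slc18a2, the gene of a vesicular monoamine transporter, was at 15.2, 19.4 and 18.1 TPM in Sema3E libraries and 9.02, 6.77 and 14.5 TPM in IgG libraries. In both genes the groups stayed apart, and IgG 3 was the highest IgG library, as it was for Amh. Without IgG 1 the unadjusted p in limma was 0.00543 for Kctd14 and 0.0518 for Slc18a2. All 18 GC markers had a positive log2 fold change, with a median of 0.28. Without IgG 1 the median was 0.09 and 12 of the 18 were positive.

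Oocyte transcripts were higher in Sema3E GC libraries. Of 17 oocyte markers, 14 were tested and all 14 had a positive log2 fold change, with a median of 0.54 (0.66 without IgG 1 and 0.45 after median ratio scaling). The Sema3E values lay above all IgG values for 13 of the 14, against 8.69% of all protein-coding genes. Without IgG 1 they again did so for 13, against 13.5%. At an unadjusted p under 0.05 in limma, 10 were higher with all 6 libraries (3.2% of all genes) and 12 without IgG 1 (5.03%). After median ratio scaling 5 were higher, against 376 of all 12183 genes. None of the 14 passed an adjusted p of 0.05. The counts of genes whose groups did not overlap were made on TPM without that scaling. Its factor was 0.848 for IgG 1 and 0.989 to 1.07 for the other libraries, and overlap after scaling was not tested. The summed TPM of the 14 genes was 460, 468 and 505 in Sema3E libraries and 381, 367 and 219 in IgG libraries, so that IgG 3 was the lowest and the 3 Sema3E libraries were close to each other.

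Dazl (chr17:50279395-50293636), which encodes a germ cell RNA-binding protein, was at 4.35, 3.40 and 4.35 TPM in Sema3E libraries and 2.00, 1.89 and 1.34 TPM in IgG libraries (log2 fold change 0.88, standard error 0.16). Zp1, Zp2 and Zp3 encode the proteins of the zona pellucida, the coat of the oocyte. Zp3 (chr5:135980099-135988624) was at 43.6, 41.5 and 46.1 TPM in Sema3E libraries and 31.7, 33.4 and 25.3 TPM in IgG libraries, and Zp2 and Zp1 had log2 fold changes of 0.50 and 0.50 beside its 0.53. These 3 genes thus differed by nearly the same amount. Gdf9 and Bmp15, oocyte growth factors that act on cumulus cells, were at 120, 124 and 135 TPM and at 74.4, 78.4 and 81.3 TPM in Sema3E libraries. Gdf9 in IgG libraries was at 102, 99.4 and 56.0 TPM and Bmp15 at 69.2, 58.1 and 27.8 TPM. Omt2a, an oocyte-enriched gene, had the largest difference of the list, at 21.0, 18.3 and 22.9 TPM in Sema3E libraries and 10.5, 11.3 and 3.87 TPM in IgG libraries (log2 fold change 1.29, standard error 0.36). Nobox, an oocyte transcription factor gene, was the member whose groups overlapped (log2 fold change 0.29).

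In the stromal libraries, the same 14 genes had a median log2 fold change of −0.76, Sema3E minus IgG. In a model of all 12 libraries, no protein-coding gene had a difference between GCs and stroma that passed an adjusted p of 0.05 in limma (0 of 13379, smallest adjusted p = 0.199), while 2544 had an unadjusted p under 0.05. The difference for single oocyte genes was therefore not shown beyond the error of that model. Markers of cumulus cells, which leave the follicle with the oocyte, had a median of 0.35 over 8 genes (0.26 without IgG 1). Of those 8, Amh was the member at an unadjusted p under 0.05 (3.2% of all genes were higher). The part of the number of oocytes in each preparation in these values was not tested.

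The Zp3 promoter is printed as an example of the group, since genes of the zona pellucida are known targets of FIGLA, an oocyte factor that binds E-boxes. The E-box was searched as CANNTG, which reads the same on both strands. All 10 of the oocyte genes with a promoter in the RefSeq table held it in at least 1 window. So did 72.3% of all single promoters of this length. In the Zp3 promoter (GRCm38.p6, chr5:135979855-135980154, plus strand), 4 E-boxes are in capitals.
Zp3 promoter: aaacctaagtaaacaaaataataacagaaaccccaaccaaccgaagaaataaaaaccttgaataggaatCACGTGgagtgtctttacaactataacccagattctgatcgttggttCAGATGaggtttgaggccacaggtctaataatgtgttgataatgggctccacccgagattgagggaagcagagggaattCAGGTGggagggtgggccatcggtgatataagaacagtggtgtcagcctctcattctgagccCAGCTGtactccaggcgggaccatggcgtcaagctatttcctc

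**Figure D2:**
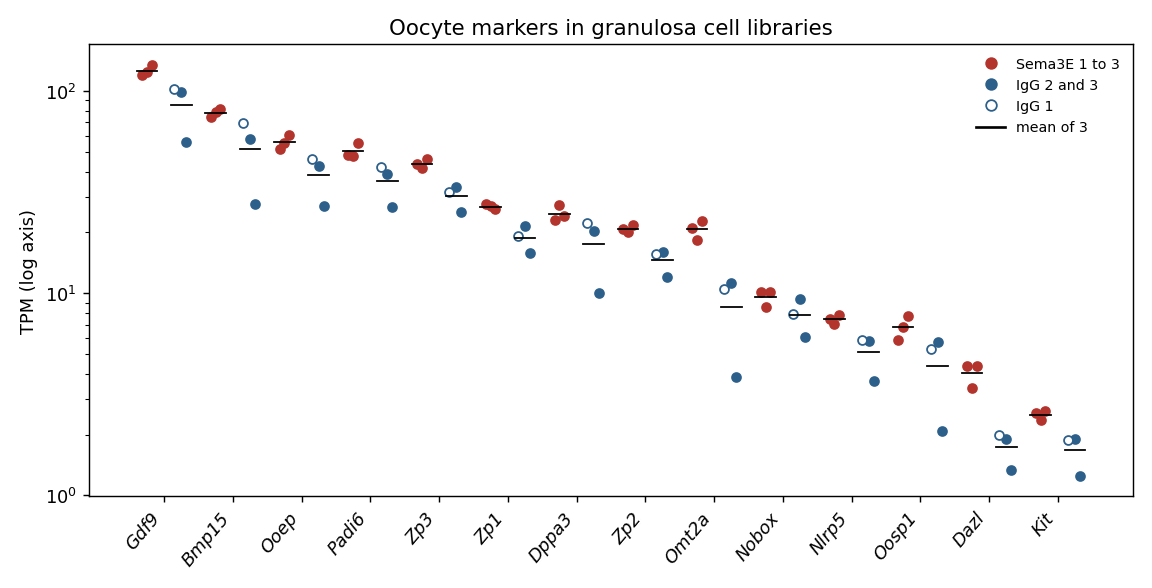
TPM (log axis) of the 14 oocyte markers in GC libraries, with Sema3E libraries left of IgG libraries for each gene, IgG 1 as an open circle and the mean of 3 libraries as a bar. For 13 genes the Sema3E points lie above all IgG points, and IgG 3 is the lowest point for each gene.

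Some genes of cell contact and of other semaphorins were higher in Sema3E libraries. Of 16 cadherin, protocadherin, connexin, nectin and integrin genes tested, 4 had an unadjusted p under 0.05, each of them higher (3.2% of all genes), and the same 4 had groups that did not overlap (8.69%). Without IgG 1, 4 were higher (5.03% of all genes) and 1 was lower (5.39%). Gja4 (chr4:127311421-127314039), which encodes connexin 37 of the gap junctions between oocyte and GCs, was at 38.7, 38.8 and 36.0 TPM in Sema3E libraries and 22.9, 27.1 and 20.2 TPM in IgG libraries (log2 fold change 0.68, standard error 0.14). The Sema3E libraries were tightly grouped above the IgG libraries. IgG 3 was the lowest library, as for the oocyte markers, and the part of the number of oocytes in this difference was not tested. Pcdh10, a protocadherin gene, was at 63.9, 7.57 and 58.1 TPM in Sema3E libraries and 4.20, 4.40 and 4.95 TPM in IgG libraries. The difference rested on Sema3E 1 and 3, and the standard error of its log2 fold change of 2.54 was 0.85. Cdh2 and Itgav, of N-cadherin and integrin αV, had log2 fold changes of 0.42 and 0.29.

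Sema3g was at 72.7, 72.9 and 66.6 TPM in Sema3E libraries and 44.5, 52.2 and 53.9 TPM in IgG libraries (log2 fold change 0.49, standard error 0.13), and Sema3c had a log2 fold change of 0.33. Both are class 3 semaphorins, as is Sema3E, and for both all Sema3E libraries were above all IgG libraries. Of 16 semaphorin, plexin and neuropilin genes tested, these 2 had an unadjusted p under 0.05 (3.2% of all genes were higher), and for Sema3c it was 0.0791 without IgG 1, when 1 gene was higher and 1 lower. Among regulators of vessel growth, 2 of 24 were higher (3.2% of all genes) and 1 lower (0.804%). Without IgG 1, 2 were higher (5.03%) and 3 lower (5.39%). Hey2, a target of Notch signaling, was at 23.3, 21.6 and 22.3 TPM in Sema3E libraries and 12.4, 15.9 and 18.5 TPM in IgG libraries, and the related Hey1 was at 10.6, 11.2 and 11.2 TPM in Sema3E libraries and 24.5, 13.1 and 16.7 TPM in IgG libraries. These related genes thus lay on opposite sides. Pdgfb had a log2 fold change of 0.27. Vegfa, the main vascular growth factor gene, was at 127, 97.3 and 103 TPM in Sema3E libraries and 95.8, 117 and 98.5 TPM in IgG libraries, and Eng and Nrarp, of endothelial and Notch signaling, had log2 fold changes of −0.69 and −0.77 with overlapping groups.

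Enzyme and signaling genes were also among the higher ones. Gsta2 (chr9:78331018-78355788), of a glutathione S-transferase, was at 8.93, 7.24 and 9.95 TPM in Sema3E libraries and 3.66, 4.15 and 3.51 TPM in IgG libraries (log2 fold change 1.02, standard error 0.14). Gsta1 differed in the same direction (0.76), and it passed the TPM filter through Sema3E libraries alone. The transcripts of Gsta1 and Gsta2 are near-identical, so the reads of these 2 genes could not be told apart with certainty. Fosb, an immediate early transcription factor gene, was at 55.5, 22.9 and 29.2 TPM in Sema3E libraries and 19.6, 11.6 and 11.3 TPM in IgG libraries. Fosb and the phosphatase gene Dusp4 were the 2 of 22 immediate early and dual-specificity phosphatase genes at an unadjusted p under 0.05, both higher (3.2% of all genes; 0.0613 for Dusp4 without IgG 1), and Fos, Jun and Egr1 had log2 fold changes of 0.21, 0.23 and 0.01. Ptgs1 and Ptges, which encode enzymes of prostaglandin synthesis, had log2 fold changes of 0.43 and 0.37. For Ptges the unadjusted p in limma was 0.169 after median ratio scaling. The LH-induced Ptgs2 was at 107, 58.7 and 102 TPM in Sema3E libraries and 149, 88.0 and 74.8 TPM in IgG libraries. Ccnd2, the cyclin D2 gene of proliferating GCs, had 46.2, 45.1 and 38.0 TPM in Sema3E libraries and 27.3, 30.4 and 33.6 TPM in IgG libraries. It was the 1 of 26 cell cycle genes at an unadjusted p under 0.05, a share near the 3.2% of all genes that were higher. The other 25 did not reach that p.

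Some of the largest differences could not be assigned to a single gene. Rpl29, of a ribosomal protein, was at 764, 767 and 786 TPM in Sema3E libraries and 65.7, 45.9 and 495 TPM in IgG libraries, and 17 other genes have a near-identical transcript. Tes3-ps, higher in Sema3E libraries, and Hmga1b, H3c13 and Acaa1b, lower in them, each have at least 1 near-identical copy. The values of these genes are uncertain for that reason, and without IgG 1 the unadjusted p in limma was 0.0538 for Rpl29 and 0.0507 for Tes3-ps, while Acaa1b was under the TPM filter. With all libraries, Acaa1b passed that filter through IgG 1 alone, and Tes3-ps through Sema3E libraries alone. The histone genes H2bu2 and H4c11 belong to a multigene family, although the search found 0 near-identical copies of either. H4c11 was at 2.41, 2.70 and 2.14 TPM in Sema3E libraries and 1.63, 0 and 0 TPM in IgG libraries, and H2bu2 had a log2 fold change of 1.74. Mpzl2, which was named for its size after its values were seen, was at 0.89, 0.31 and 0.23 TPM in Sema3E libraries and 30.0, 51.7 and 0.31 TPM in IgG libraries, and IgG 3 lay within the Sema3E range.

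Among the lower genes, Gcnt3 and Cdo1 were the clearest. Gcnt3 (chr9:70031496-70038088), of a mucin-type glycosyltransferase, was at 0.04, 0 and 0.04 TPM in Sema3E libraries and 1.63, 2.90 and 3.22 TPM in IgG libraries (log2 fold change −1.78, standard error 0.23, adjusted p = 0.0873 from limma). It was thus at or near 0 in all Sema3E libraries and above 1 TPM in all IgG libraries. Gcnt3 therefore passed the TPM filter through the IgG libraries alone. Cdo1, which encodes cysteine dioxygenase, was at 3.37, 2.91 and 3.52 TPM in Sema3E libraries and 5.68, 10.4 and 8.43 TPM in IgG libraries. Without IgG 1 its log2 fold change was −1.28, against −1.07 with it. Ndrg2, a gene of the N-myc downstream-regulated family, was at 40.8, 38.7 and 33.7 TPM in Sema3E libraries and 73.6, 100 and 49.6 TPM in IgG libraries.

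Further genes below the IgG libraries were F3, of tissue factor (log2 fold change −0.83), Fam181b (−0.86) and Hemk1 (−0.87). For Fam181b the unadjusted p in limma was 0.0862 without IgG 1. F3 was at 33.1, 24.0 and 27.4 TPM in Sema3E libraries and 80.6, 34.1 and 46.7 TPM in IgG libraries. Mt3, of a metallothionein, was at 36.8, 44.2 and 42.3 TPM in Sema3E libraries and 41.1, 90.0 and 92.6 TPM in IgG libraries, so that it was below IgG 2 and 3 and overlapped with IgG 1. Gpx3, of an extracellular glutathione peroxidase, Npc2, of a lysosomal cholesterol carrier, and Egln3, of a prolyl hydroxylase, had log2 fold changes of −0.31, −0.47 and −0.36, and each stayed below all IgG libraries.

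Some genes of antigen presentation by MHC class I were lower in Sema3E libraries, of which none passed an adjusted p of 0.05. Of 19 MHC and antigen presentation genes, 0 had a positive log2 fold change, 4 were lower at an unadjusted p under 0.05 (0.804% of all genes), and 5 lay below all IgG libraries, with and without IgG 1, against 1.78% and 19.2% of all protein-coding genes. The median was −0.55, and −0.14 without IgG 1, and IgG 1 was the highest of the 6 libraries for 18 of the 19. Without IgG 1, 5 of 18 had a positive log2 fold change and 3 were lower at an unadjusted p under 0.05 (5.39% of all genes). Tap1 (chr17:34187553-34197225), a subunit of the peptide transporter, was at 33.2, 24.2 and 30.6 TPM in Sema3E libraries and 66.4, 39.6 and 45.9 TPM in IgG libraries. Tap2, the other subunit, was at 46.4, 38.3 and 43.8 TPM in Sema3E libraries and 50.7, 64.2 and 76.5 TPM in IgG libraries, with IgG 1 the lowest of the IgG libraries. Its log2 fold change was −0.55 with IgG 1 and −0.70 without it.

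Psmb8, of an immunoproteasome subunit, and H2-Q7, of a nonclassical class I molecule, had log2 fold changes of −0.74 and −1.08, and −0.48 and −0.60 without IgG 1, when the unadjusted p in limma for Psmb8 was 0.0996. H2-Q7 belongs to a family of related genes, although the search for near-identical transcripts found 0 for it. The classical genes H2-K1 and H2-D1 and the light chain gene B2m overlapped between groups. The class II genes H2-Aa, H2-Ab1 and Cd74, of antigen-presenting leukocytes, were highest in IgG 1, and H2-Aa was at 6.84, 3.87 and 5.78 TPM in Sema3E libraries and 34.0, 3.70 and 4.82 TPM in IgG libraries. These class II genes overlapped between groups, also without IgG 1. Markers of macrophages and monocytes summed to 822, 319 and 696 TPM in Sema3E libraries and 3520, 251 and 279 TPM in IgG libraries. The part of leukocytes in these differences was not tested.

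Some markers of the follicle wall were lower as well. Of 18 theca and stroma markers, 4 were lower and 1, Ptch1, was higher at an unadjusted p under 0.05, against 0.804% and 3.2% of all genes. All IgG libraries were above the Sema3E libraries for 6 (1.78% of all genes), and IgG 2 and 3 for 7 (19.2%), and the median was −0.39 (−0.47 without IgG 1). Cd248, a marker of perivascular fibroblasts, was at 4.12, 5.26 and 4.45 TPM in Sema3E libraries and 10.7, 9.83 and 6.53 TPM in IgG libraries. Mgp, of matrix Gla protein, was at 43.5, 41.4 and 53.3 TPM in Sema3E libraries and 63.8, 77.1 and 66.2 TPM in IgG libraries. Col3a1, of type III collagen, and Tcf21, a mesenchymal transcription factor gene, had log2 fold changes of −0.82 and −0.70, and the unadjusted p in limma for Col3a1 was 0.0639 without IgG 1. These genes were detected at low levels beside the GC markers, and their summed TPM over the list was 157, 127 and 130 in Sema3E libraries and 213, 224 and 169 in IgG libraries.

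Of 9 smooth muscle and pericyte markers, 0 had a positive log2 fold change, and Kcnj8, a pericyte channel gene, and Acta2, of smooth muscle actin, were lower at an unadjusted p under 0.05 (0.804% of all genes). Kcnj8 was at 1.10, 1.04 and 0.59 TPM in Sema3E libraries and 1.99, 2.42 and 1.58 TPM in IgG libraries. Acta2 was at 4.45, 5.09 and 3.26 TPM in Sema3E libraries and 7.50, 9.82 and 5.27 TPM in IgG libraries. In both genes the groups did not overlap, and the unadjusted p in limma for Acta2 was 0.0582 without IgG 1. Of 10 endothelial markers, 2 had a positive log2 fold change, and the median was −0.44. Cldn5 was lower at an unadjusted p under 0.05 (0.804% of all genes). Its groups overlapped, and its p without IgG 1 was 0.0894 in limma. Whether fewer wall cells came with the GCs of Sema3E ovaries was not tested.

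**Figure D3:**
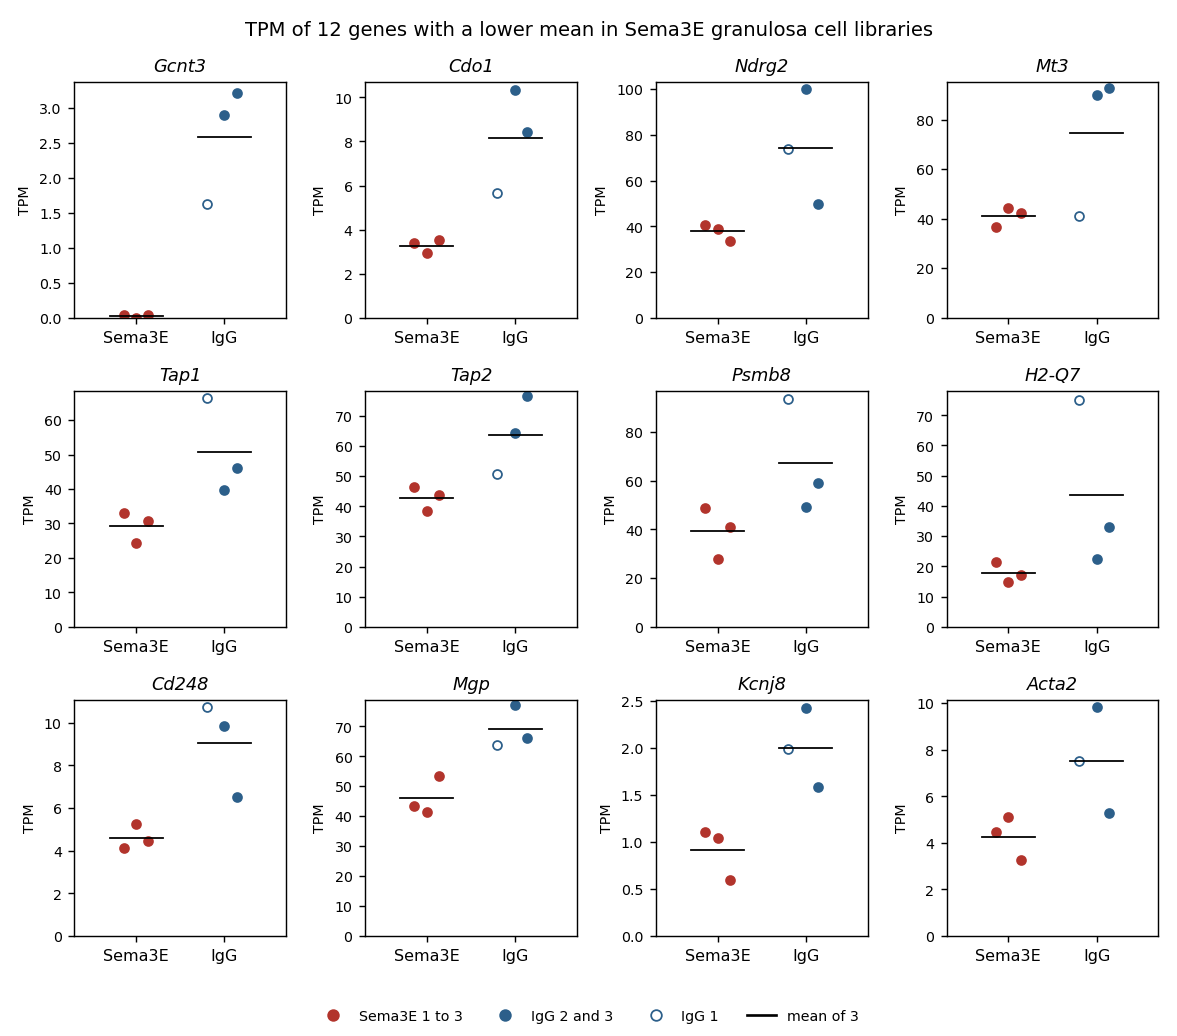
TPM of 12 genes in each GC library (linear axes from 0), with Sema3E libraries on the left and IgG libraries on the right of each panel, IgG 1 as an open circle and the mean of 3 libraries as a bar. Gcnt3 lies at 0 to 0.04 TPM in Sema3E libraries and at 1.63 to 3.22 TPM in IgG libraries, and Mt3 overlaps with IgG 1 at 41.1 TPM.

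No gene of the lists of ovulatory effectors, EGF-like ligands and steroidogenesis reached an unadjusted p under 0.05 with all 6 libraries. In 2 related lists some did, each of them higher (3.2% of all genes). These were Itih5 of 10 cumulus expansion genes, whose groups overlapped, and Ptgs1 and Ptges of 18 prostaglandin genes. For Itih5 the unadjusted p in limma was 0.141 without IgG 1. Of 22 genes of the LH receptor, progesterone receptor and ovulatory effectors, 0 were at an unadjusted p under 0.05 in limma in either direction, and likewise 0 of 10 genes of EGF-like ligands and their receptors. Without IgG 1, 4 and 2 of them were lower, against 5.39% of all genes. Pgr, the progesterone receptor gene required for follicle rupture, was at 1.69, 1.60 and 1.41 TPM in Sema3E libraries and 6.82, 1.55 and 4.19 TPM in IgG libraries. Areg, of the EGF-like ligand amphiregulin, was at 5.30, 2.97 and 3.48 TPM in Sema3E libraries and 33.1, 5.26 and 9.99 TPM in IgG libraries. Both had the lower mean in Sema3E libraries, but IgG 2 lay within the Sema3E range for each. The unadjusted p was 0.0596 for Pgr and 0.0757 for Areg, and 0.158 and 0.0487 without IgG 1.

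Lhcgr, the LH receptor gene, was at 48.1, 45.0 and 39.8 TPM in Sema3E libraries and 28.1, 49.0 and 47.7 TPM in IgG libraries. Star, of the protein that carries cholesterol into mitochondria, was at 1033, 874 and 1125 TPM in Sema3E libraries and 845, 1474 and 825 TPM in IgG libraries, and Cebpb, a transcription factor gene of luteinization, was at 3668, 3709 and 3969 TPM in Sema3E libraries and 3204, 4056 and 4915 TPM in IgG libraries. With all 6 libraries, none of these 3 differed beyond the spread. Without IgG 1, the Sema3E values of Cebpb lay below IgG 2 and 3, as for 19.2% of all genes. Its log2 fold change was then −0.24 (standard error 0.11, unadjusted p = 0.0782 in limma). Of 17 steroidogenesis genes, 0 were at an unadjusted p under 0.05 with all libraries, and 3 were lower without IgG 1 (5.39% of all genes).

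The cholesterol genes depended on IgG 1. Of 24 genes of cholesterol synthesis, uptake and transport, 0 were higher and 1, Npc2, was lower at an unadjusted p under 0.05 with all 6 libraries (0.804% of all genes were lower), with a median of −0.05. Without IgG 1, 10 were lower and 0 higher (5.39% of all genes were lower), 13 lay below both IgG 2 and IgG 3 (19.2% of all genes), and the median was −0.20. Dhcr7, the enzyme of a late step of cholesterol synthesis, was at 78.5, 73.1 and 84.9 TPM in Sema3E libraries and 69.6, 140 and 107 TPM in IgG libraries. Lss, of lanosterol synthase, was at 40.0, 40.4 and 45.7 TPM in Sema3E libraries and 34.8, 59.9 and 53.1 TPM in IgG libraries. IgG 1 lay below the Sema3E libraries for both.

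Leukocyte genes also depended on IgG 1. The neutrophil genes S100a8 and Retnlg were at 267, 58.1 and 169 TPM and at 36.2, 7.30 and 20.3 TPM in Sema3E libraries. In IgG libraries S100a8 was at 430, 38.1 and 23.6 TPM and Retnlg at 20.5, 3.09 and 2.11 TPM. The Sema3E libraries thus lay above IgG 2 and 3, and S100a8 was highest in IgG 1. Of 10 neutrophil markers, 0 were at an unadjusted p under 0.05 with all 6 libraries, with a median of 0.46. Without IgG 1 the median was 1.5, 6 were higher (5.03% of all genes) and 7 lay above both IgG 2 and IgG 3 (13.5%). Cxcl2, G0s2, Il1b and S100a9, which rank with S100a8 and Retnlg among the largest differences without IgG 1, were each highest in IgG 1 of the 6 libraries. Mmp9, which ranks with them, was at 23.3 TPM in IgG 1, between Sema3E 3 at 19.5 TPM and Sema3E 1 at 24.4 TPM. Of 30 interferon-stimulated genes, IgG 1 was the highest library for 30, and the median was −0.45 with it and 0.23 without it. The median of the interferon-stimulated genes thus changed sign with IgG 1, while that of the neutrophil markers was positive with and without it.

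**Figure D4:**
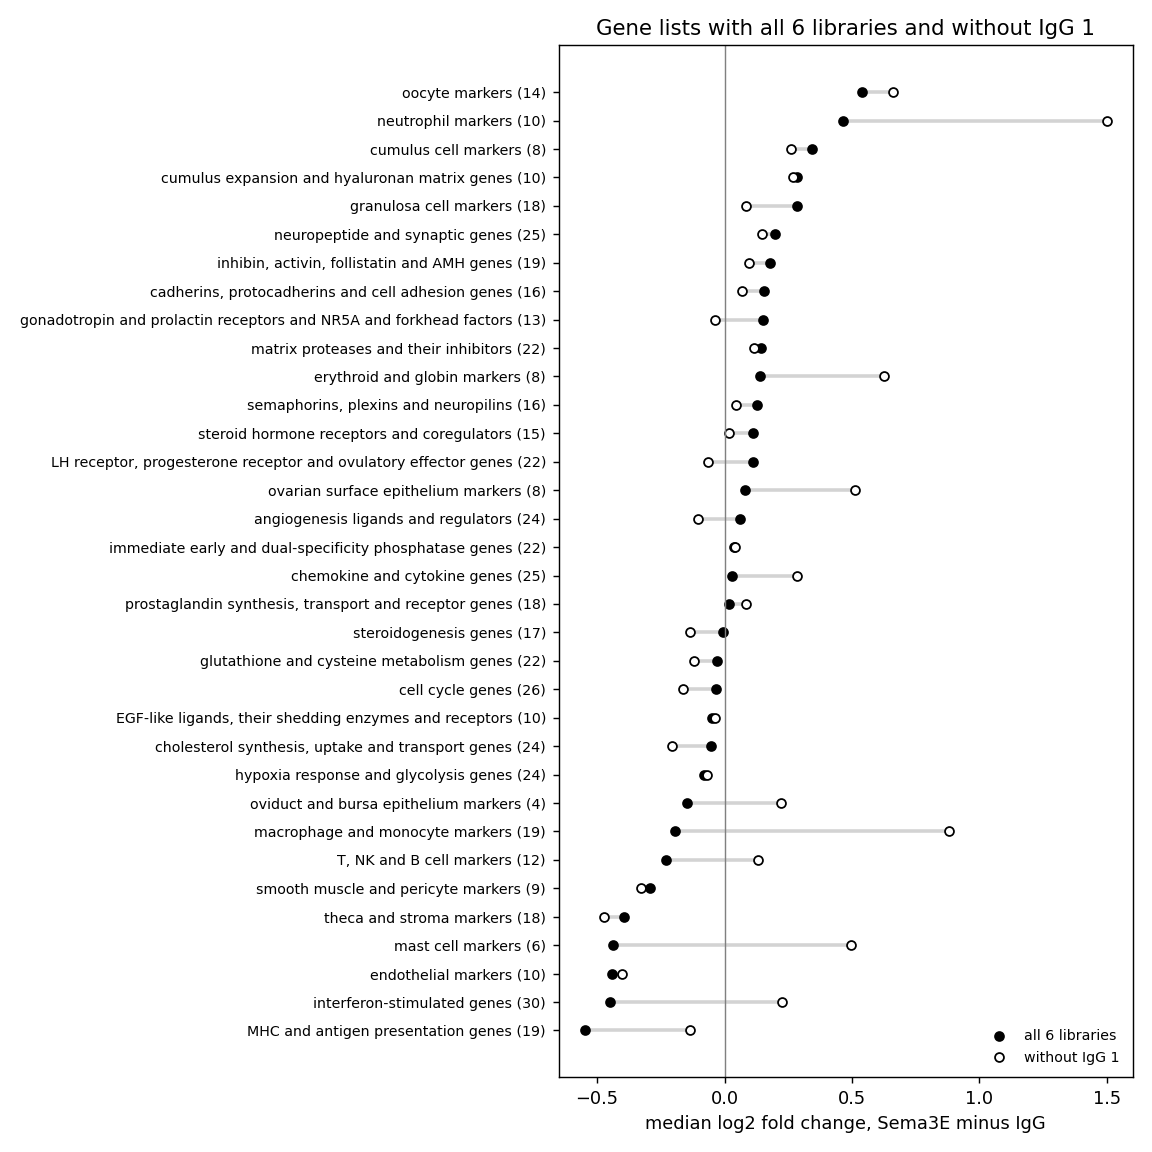
Median log2 fold change, Sema3E minus IgG on log2(TPM + 1), of each gene list, with the number of genes tested in brackets. Filled circles use all 6 GC libraries and open circles leave out IgG 1, and oocyte markers lie at 0.54 and 0.66 while interferon-stimulated genes lie at −0.45 and 0.23.

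**Figure D5:**
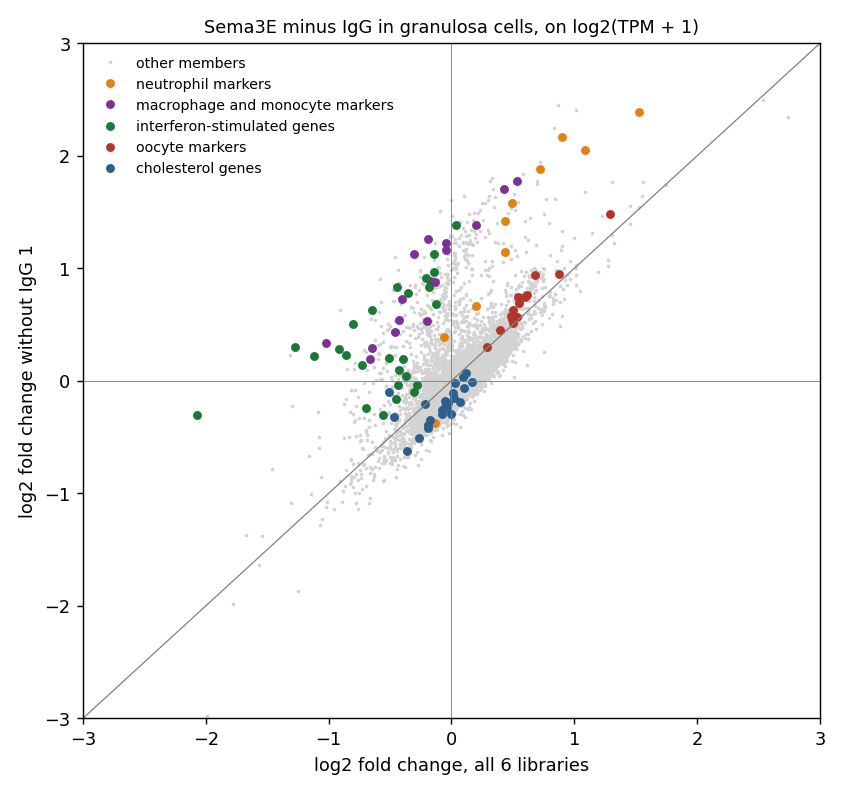
Log2 fold change of each protein-coding gene with all 6 GC libraries (horizontal axis) and without IgG 1 (vertical axis), on log2(TPM + 1), for 11977 genes, 1 of which (Mpzl2) lies outside the axes. Of the coloured lists, 16 of 16 macrophage, 26 of 26 interferon, 14 of 14 oocyte and 9 of 10 neutrophil genes lie above the diagonal, and 20 of 23 cholesterol genes lie below it.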

How the data were processed

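Bulk RNA-seq was analysed for the 6 GC libraries, and the 6 stromal libraries were used only where stroma or all 12 libraries are named. Per the labels and the methods of the study, the authors aligned reads to GRCm38/mm10 with HISAT2 2.0.5, counted them per gene with featureCounts 1.5.0-p3 and deposited TPM values made with edgeR 1.3.3. The strand setting and read totals are not given in the sources used here. Some TPM values in the deposited table are as small as 8.44e-46, which whole reads do not give, so no count test was run. A biotype column of the table chose the protein-coding genes. All columns of values were assigned to samples by name.

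Genes of every biotype with TPM over 1 in at least 1 of the 6 libraries were fitted together with limma 3.58.1 (R 4.3.3, trend and robust options) on log2(TPM + 1), Sema3E minus IgG, with Benjamini-Hochberg adjustment of the p-values over all 15128. Fold changes on this scale understate the change of genes with low TPM. The study's own test was on read counts. The fit was tested on simulated data. With 3 libraries against 3, the smallest p of an exact permutation test is 0.1, so none was used. Genes named in the text were the genes the study names, members past an adjusted p of 0.05, the 10 largest changes in each direction with an unadjusted p under 0.05 and groups apart, the 8 largest without IgG 1, and from each list at most the 4 genes of lowest p. Predicted genes were not named, and other values are given for members of the lists beside them. The members and gene lists were chosen with earlier results of these data known. Near-identical copies were found with blastn 2.17.0 among GENCODE M21 transcripts (95% identity over 80% of the length). Promoters came from a RefSeq table of GRCm38.p6, and gene positions from GENCODE M21 by gene ID. Whether replicate numbers pair the libraries is described under the alternatives. The alternatives changed the pseudocount, the filter, the scaling, the genes and libraries fitted and the robust option, and left out each library in turn.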

Additional observations from a re-analysis of the deposited data

How the results depend on the processing

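Of 158 genes named by the rule, 65 had an unadjusted p under 0.05, and all 65 kept their sign under each of the 14 alternatives in which they could be tested, but only 21 stayed under 0.05 in every one of them. With median ratio scaling, 9 of the 65 were no longer under 0.05. Among them were Ptges, Pdgfb, Itgav and Fstl3, which were higher, and H2-Q7, Psmb8 and F3, which were lower. The count of protein-coding genes past an adjusted p of 0.05 was 1. It was 2 without a filter on low TPM, neither of them Tac1, and 0 with protein-coding genes alone, with median ratio scaling, without robust estimation and with all 12 libraries in the fit. It ranged from 0 to 8 when each library was left out, with 8 without IgG 3 and 5 without Sema3E 2. The adjusted p of Tac1 was 0.0529 to 0.127 without a library and 0.826 with all 12 libraries. With a fold over 2 as well, the count was 24, and 64 with a pseudocount of 0.1 and 69 when folds were ratios of group means of TPM, and it ranged from 21 to 124 without a library, with 124 without IgG 1 and 70 without IgG 3. The count at an unadjusted p under 0.05 was 488, and 819 without a filter, 896 with median ratio scaling and 266 with all 12 libraries, and it ranged from 199 without Sema3E 3 to 1247 without IgG 1. It was 222 without Sema3E 1 and 282 without Sema3E 2. The cause of these shifts was not tested. The difference between GCs and stroma gave 0 protein-coding genes at an adjusted p of 0.05 in all alternatives.

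With the replicate number as a block, 120 protein-coding genes passed an adjusted p of 0.05 and 40 passed the unadjusted p with a fold over 2. The ovulatory genes Areg, Pgr and Ereg were among the 120, all lower, with adjusted p of 1.26e-09, 0.00952 and 0.0134 from limma. Deviations of same-numbered Sema3E and IgG libraries from their group means correlated at 0.53, 0.38 and −0.143. Sema3E 2 correlated at 0.455 with IgG 3. Deviations within a group depend on each other, and IgG 1 stood apart. These correlations therefore cannot decide whether the numbers pair the libraries, and the block was kept as an alternative only.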
